A study of Mus musculus with 2 samples.

Results

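The 33 genes described here encode complement components, receptors and regulators, and they were chosen by function from the 55536 genes of the deposited gene table. They were divided by where each protein is known to be made: 13 mainly by liver, 8 by liver and by many other tissues, and 12 locally, of which 7 mark myeloid cells and 5 are stromal or on cell membranes. The samples were adrenal glands of female mice of the F1 hybrid strain B6CASTF1/J, 14 days old, with no treatment named, and 300 ng of total RNA went into each library after ribosomal RNA was reduced. There was 1 group of 2 libraries, named replicate 2 and replicate 1 by their labels, so the only comparison is between these libraries. Both carry the same donor identifier and a library description of 3 females, while the tissue description of replicate 2 names 1 numbered female. Whether the libraries come from separate animals is therefore not settled, part of their spread may be technical, and a fold between them compares libraries and not conditions.

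Complement is a set of plasma and cell-surface proteins that mark microbes and debris for removal and can perforate membranes. The classical pathway starts with C1q bound to antibody, the lectin pathway with a sugar-binding lectin, and the alternative pathway with C3 that turns over by itself. All of them cleave C3, whose fragments coat the target, and then C5, which opens the way for the terminal components to build the membrane attack complex. Hepatocytes secrete most of the plasma proteins of the system, macrophages make C1q and properdin, and host cells carry membrane regulators that stop the cascade on their own surface.

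The deposited expected counts came to 33844950 for replicate 2 and 37586172 for replicate 1 in all. Adrenal cortex markers were present in both libraries: Star, which carries cholesterol into mitochondria for steroid synthesis, had 838 TPM (a level scaled to transcript length and to the whole library) in replicate 2, against 2049 TPM in replicate 1. Hepatocyte markers were in both as well and stood apart: all 12 were over 2-fold higher in replicate 2, with a median log2 difference of 6.32 and a summed level of 21588 TPM in replicate 2, against 375 TPM in replicate 1. Erythroid markers (3 of 3) and thymocyte markers (6 of 6) were over 2-fold lower in replicate 2, and skeletal muscle markers (5 of 5) were over 2-fold higher. No marker of these lists was at 0 counts in either library. The part that these other cell types play in the values below was not tested, and in whole tissue more cells of a type and more RNA per cell cannot be told apart.

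All 33 genes were detected in both libraries and all passed the minimum mean count of 20. Folds are counts of replicate 2 over replicate 1 after TMM scaling, which places the median gene near no difference. On log2(TPM + 0.1) the median gene lay at -0.41, so a gene of equal TPM in both libraries has a fold above 1. By this measure 23 of them were over 2-fold higher in replicate 2 and 0 were over 2-fold lower, beside 8.45% and 2.56% of all 16155 genes tested. A further 6 were higher by less than 2-fold and 4 were lower by less than 2-fold. The size of the difference followed the source for most genes. The source classes were set from textbook knowledge with earlier results of these data known, so this is a description and not an independent check. Of the 13 liver-made genes, 12 were over 2-fold and 11 over 16-fold higher, against 3.16% of all genes tested at that size, and their median log2 difference was 6.34. Of the 8 genes made in liver and elsewhere, 7 were over 2-fold and 2 over 16-fold higher, with a median of 1.79. Of the 12 locally made genes, 4 were over 2-fold higher and 0 over 16-fold, with a median of 0.42. Under total-count and spike-in scaling and on both TPM scales only Fcna of these 12 was over 2-fold higher, so that count was 1. At those settings 4.78% to 6.75% of all genes tested were over 2-fold higher, so 1 of 12 is near that share. The median over all genes tested was 0.002. Of the 33 genes, 14 overlap another annotated gene, 12 of them one on the other strand, and use of strand in counting is not given in the sources used here. Those that share bases with a gene averaging at least 20 counts were C8g, Masp2, C2, Cd46 and Masp1, whose values are the less certain for it.

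**Figure D1:**
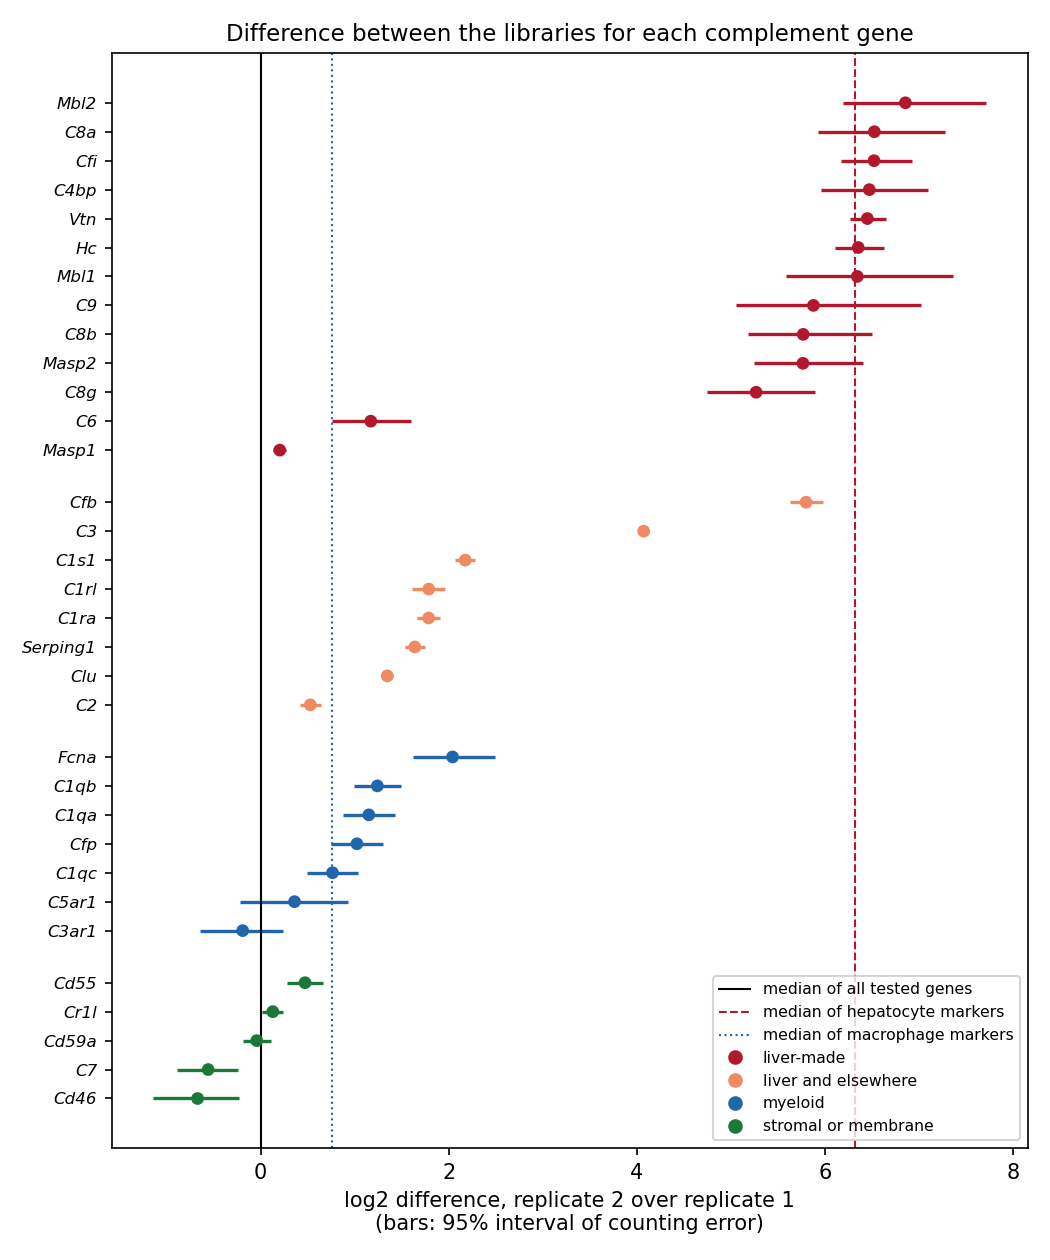
Log2 difference of replicate 2 over replicate 1 for each of the 33 genes, grouped by source, with the 95% counting interval as a bar. Vertical lines mark the medians of all genes tested (0.002), of macrophage markers (0.76) and of hepatocyte markers (6.32). Apart from Masp1 and C6, the liver-made genes lie between 5.27 and 6.85, while the stromal or membrane genes lie between -0.67 and 0.47.

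Summed levels differed between the libraries in the same order of classes, although the classes did not rank that way by level. The liver-made genes came to 559 TPM in replicate 2, against 39.8 TPM in replicate 1 (mean 299 ± 367 TPM, SD, n = 2). Those made in liver and elsewhere came to 872 TPM in replicate 2, against 166 TPM in replicate 1 (519 ± 500 TPM). The locally made genes held 78.9 TPM in replicate 2, against 75.9 TPM in replicate 1 (77.4 ± 2.15 TPM), so the spread between libraries was small for that sum and larger than the mean for the liver-made sum. Within the locally made genes the parts differed in direction: the myeloid genes summed to 38.1 TPM in replicate 2, against 23.8 TPM in replicate 1, and the stromal or membrane genes to 40.8 TPM in replicate 2, against 52.1 TPM in replicate 1. In replicate 2 the highest of the 33 levels belonged to C3, Vtn, Cfb and Clu, and in replicate 1 to Clu, C3, Masp1 and Cr1l.

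**Figure D2:**
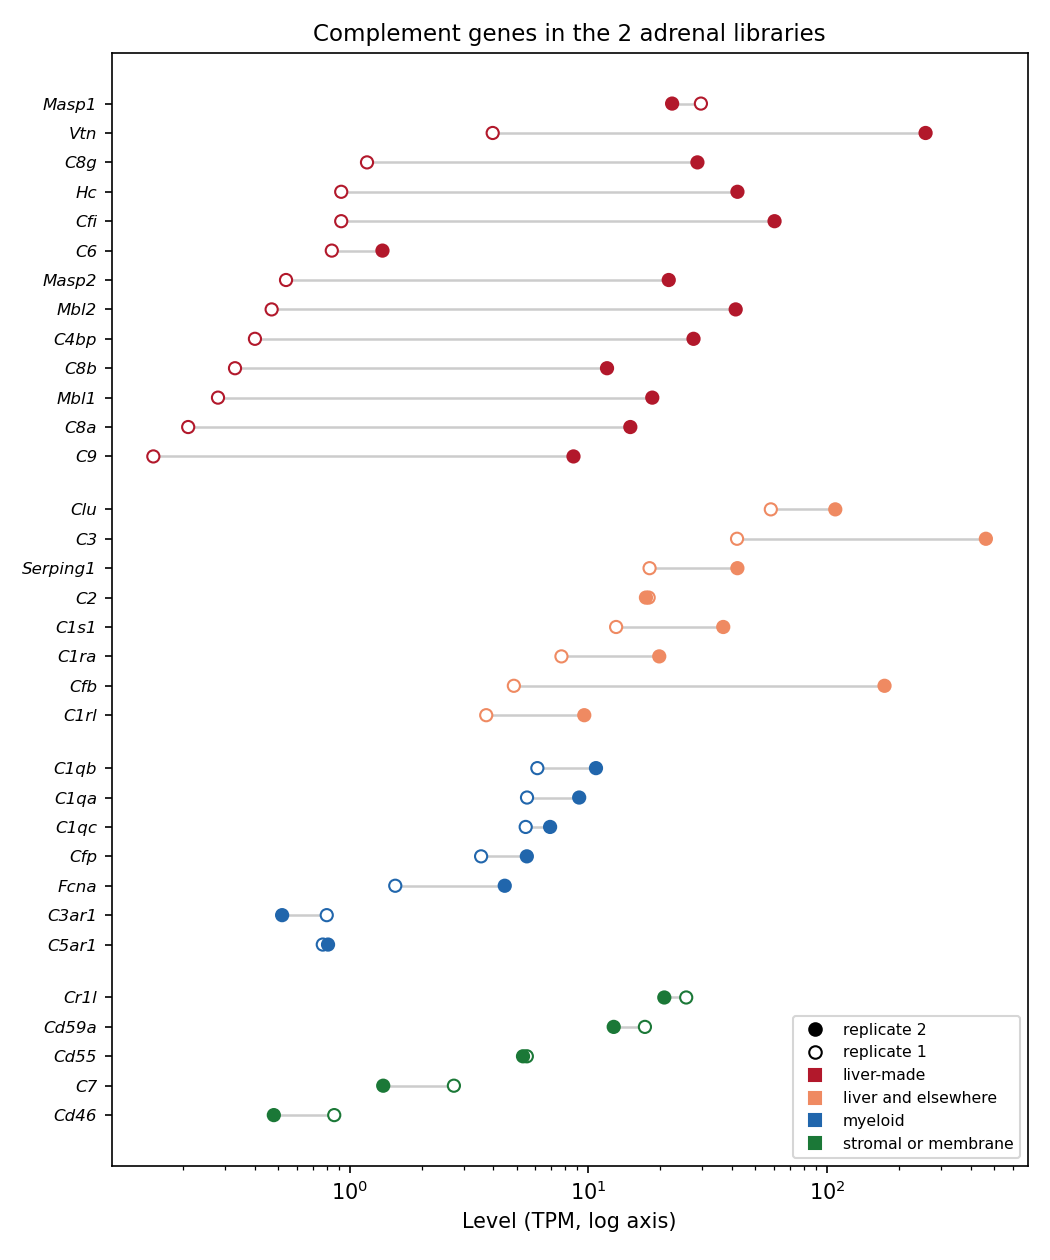
Level of each of the 33 genes in TPM on a log axis, grouped by source, with replicate 2 as a filled and replicate 1 as an open circle. The circles part widely for most liver-made genes, as for C8g with 28.7 TPM in replicate 2, against 1.18 TPM in replicate 1, and lie closer together for the stromal or membrane genes, among which C7 has 1.38 TPM in replicate 2, against 2.73 TPM in replicate 1.

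The classical pathway starts with the C1 complex. Its recognition part, C1q, is built of 3 chains encoded by neighbouring genes on chromosome 4 and made by macrophages. C1qa had 9.15 TPM in replicate 2, against 5.53 TPM in replicate 1. C1qb had 10.8 TPM in replicate 2, against 6.11 TPM in replicate 1. C1qc had 6.91 TPM in replicate 2, against 5.46 TPM in replicate 1. The fold was 2.22 for C1qa (95% counting interval 1.84 to 2.69), 2.36 for C1qb (1.99 to 2.82) and 1.70 for C1qc (1.41 to 2.05), so C1qa and C1qb passed 2-fold and C1qc did not. Under total-count scaling, in which the median gene itself moved by -0.34, and under spike-in scaling, none of the 3 was over 2-fold.

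The proteases of C1 are made in liver and by fibroblasts and macrophages. C1ra, which activates C1s, had 19.8 TPM in replicate 2, against 7.71 TPM in replicate 1, and was 3.45-fold higher (3.17 to 3.76). C1s1, which cleaves C4 and C2, had 36.8 TPM in replicate 2, against 13.1 TPM in replicate 1, and was 4.52-fold higher (4.20 to 4.87). C1rl, a related protease, had 9.61 TPM in replicate 2, against 3.73 TPM in replicate 1, and was 3.45-fold higher (3.06 to 3.91). The 3 protease genes therefore differed more than the C1q chains did. Their folds were far below those of the 11 liver-made genes set apart for being over 16-fold higher. They were above those of the remaining liver-made genes, C6 (2.25) and Masp1 (1.15), so no order against the whole class follows. C1ra and C1s1 have near-identical copies, C1rb and C1s2, and their reads may be shared in part. C1rb had 2.38 TPM in replicate 2, against 0.94 TPM in replicate 1, and C1s2 had 1.59 TPM in replicate 2, against 0.57 TPM in replicate 1.

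Lectins and their proteases start the lectin pathway. Mbl2, a mannose-binding lectin of plasma, had 41.5 TPM in replicate 2, against 0.47 TPM in replicate 1, from 1353 counts in replicate 2 and 16 in replicate 1. Its fold of 116 (73.1 to 209) was the highest among the 33 genes and ranked 61 among all 16155 tested. It was not the highest in the second table, where Mbl2 was 80.8-fold and Cfi 96.9-fold higher, nor on log2(TPM + 1), where Vtn was. Mbl1, the other mannose-binding lectin of mice, had 18.5 TPM in replicate 2, against 0.28 TPM in replicate 1, and was 81.1-fold higher (48.0 to 164). Masp2, the protease that cleaves C4 and C2 on behalf of the lectins, had 21.7 TPM in replicate 2, against 0.54 TPM in replicate 1, and was 54.3-fold higher (37.8 to 84.3). Its gene overlaps Tardbp on the other strand, which held 2720 counts in replicate 2 and 4190 in replicate 1. Fcna, ficolin A, a lectin of liver and spleen macrophages in mice, had 4.46 TPM in replicate 2, against 1.55 TPM in replicate 1, and was 4.11-fold higher (3.08 to 5.61), the highest fold of the locally made genes. Masp1 stood apart from the other liver-made genes, with 22.4 TPM in replicate 2, against 29.6 TPM in replicate 1. Its fold was 1.15 (1.10 to 1.21), and its log2 difference of 0.20 became -0.14 under total-count scaling, -0.07 under spike-in scaling and -0.39 on log2(TPM + 1).

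The near-equal level of Masp1 hid opposite differences of its transcripts. Masp1 (ENSMUSG00000022887.9, chr16:23449417-23520815 in mm10, minus strand) encodes alternative proteins that share their first domains and end in different protease domains. Masp1-201 has 16 coding exons, of which 6 with 794 coding bases are its own (23452385 to 23465165), the arrangement of the protease MASP-1. Masp1-203 has 11 coding exons, of which 1 with 881 coding bases is its own (23469850 to 23470730), the arrangement of MASP-3, the protease that activates factor D. The other 10 coding exons are shared. The coding sequence across the splice from the last shared exon (lower case, chr16:23474874-23474903) into the first own exon (capitals, chr16:23465136-23465165 for Masp1-201 and chr16:23470701-23470730 for Masp1-203) shows where the transcripts part:
Masp1-201: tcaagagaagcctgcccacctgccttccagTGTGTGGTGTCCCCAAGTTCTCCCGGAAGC
Masp1-203: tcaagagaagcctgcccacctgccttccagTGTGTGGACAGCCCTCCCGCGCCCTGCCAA
Both own exons open with the same letters and differ after them.

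Masp1-201 had 7.20 TPM in replicate 2, against 0.50 TPM in replicate 1, from 1246 expected counts in replicate 2 and 90.4 in replicate 1, and was 19.4-fold higher (15.7 to 24.4). Masp1-203 had 14.2 TPM in replicate 2, against 27.6 TPM in replicate 1, from 1726 expected counts in replicate 2 and 3522 in replicate 1, and was 1.45-fold higher in replicate 1 (1.37 to 1.54). Masp1-201 thus held 32.1% of the gene's TPM in replicate 2 and 1.68% in replicate 1, and Masp1-203 held 63.3% in replicate 2 and 93.2% in replicate 1. In the second deposited transcript table, which was made from read files and an index, the share of Masp1-201 was 34.8% in replicate 2 and 3.84% in replicate 1, and that of Masp1-203 was 60.6% in replicate 2 and 91.6% in replicate 1. Its folds were 9.54 for Masp1-201 and 1.43 higher in replicate 1 for Masp1-203. The direction for both transcripts was the same in both tables, and the size for Masp1-201 was not. Reads from the shared exons are divided between the transcripts by estimation, and these intervals do not cover the error of that division.

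Of the 123 annotated transcripts of the 33 genes, 42 had a mean expected count of at least 100. Only 6 of these 42 moved their share of the gene by at least 20 percentage points the same way in both tables, the 2 Masp1 transcripts and 1 each of C8a, C8b, C8g and Hc. In replicate 1, C8a had 20 counts in all, C8b 21 and C8g 28, so their shares there rest on few counts.

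C3 is the protein on which the pathways meet, and it had the highest level of the 33 genes in replicate 2. C3 (ENSMUSG00000024164.15, chr17:57203970-57228136 in mm10, minus strand) had 464 TPM in replicate 2, against 42.0 TPM in replicate 1, and was 16.8-fold higher (16.4 to 17.3). Cfb, factor B, forms the alternative convertase together with C3b, and it had 174 TPM in replicate 2, against 4.87 TPM in replicate 1. Its fold of 55.6 (49.3 to 63.2) lay among those of the liver-made genes. C2, which has the same part in the classical convertase, had 17.4 TPM in replicate 2, against 17.9 TPM in replicate 1, and was 1.44-fold higher (1.34 to 1.56), and its sign turned on the TPM scales (-0.04). Cfb and C2 lie next to each other on the minus strand of chromosome 17, where the coordinates of Cfb run up to 34862518 and those of C2 start from 34862604. A read-through transcript annotated over both, Gm20547, had 0 counts in both libraries. Hc, the mouse gene for C5, had 42.2 TPM in replicate 2, against 0.92 TPM in replicate 1, and was 81.6-fold higher (68.6 to 98.7). Cfp, properdin, which steadies the alternative convertase and is made by myeloid cells, had 5.52 TPM in replicate 2, against 3.55 TPM in replicate 1, and was 2.03-fold higher (1.68 to 2.47), a call that was lost under total-count and spike-in scaling.

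The terminal components build the membrane attack complex. C8a, C8b and C8g encode the chains of C8. C8a had 15.0 TPM in replicate 2, against 0.21 TPM in replicate 1, and was 91.9-fold higher (60.7 to 155). C8b, which lies beside C8a on chromosome 4, had 11.97 TPM in replicate 2, against 0.33 TPM in replicate 1, and was 54.4-fold higher (36.2 to 90.4). C8g had 28.7 TPM in replicate 2, against 1.18 TPM in replicate 1, and was 38.5-fold higher (26.9 to 59.3), the lowest fold of the 11 high liver-made genes. It overlaps Fbxw5, which held 1261 counts in replicate 2 and 1560 in replicate 1. C9, which polymerises into the pore, had 8.66 TPM in replicate 2, against 0.15 TPM in replicate 1, from 437 counts in replicate 2 and 10 in replicate 1, and was 58.7-fold higher (33.2 to 129). C6 and C7 were unlike C8 and C9. C6 had 1.37 TPM in replicate 2, against 0.84 TPM in replicate 1, from 125 counts in replicate 2 and 78 in replicate 1, and was 2.25-fold higher (1.69 to 3.04), which was under 2-fold with total-count and spike-in scaling. C7, the component known to be made largely outside the liver, had 1.38 TPM in replicate 2, against 2.73 TPM in replicate 1, and a log2 difference of -0.56, so it was lower in replicate 2 by less than 2-fold.

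Soluble regulators hold the cascade in check in plasma. Cfi, factor I, which cuts C3b and C4b, had 60.3 TPM in replicate 2, against 0.92 TPM in replicate 1, and was 91.7-fold higher (71.7 to 121). C4bp, which helps factor I to act on C4b, had 27.6 TPM in replicate 2, against 0.40 TPM in replicate 1, and was 88.6-fold higher (62.2 to 136). Vtn, vitronectin, which keeps the terminal complex out of membranes, had 259 TPM in replicate 2, against 3.97 TPM in replicate 1, and was 87.3-fold higher (76.7 to 100.3). These 3 folds were close to each other, but in the second table C4bp was 60.0-fold, Cfi 96.9-fold and Vtn 83.5-fold higher. The 2 regulators made in many tissues differed far less. Serping1, the inhibitor of C1r and C1s, had 42.1 TPM in replicate 2, against 18.1 TPM in replicate 1, and was 3.12-fold higher (2.89 to 3.36). Clu, clusterin, which binds the terminal complex, had 108 TPM in replicate 2, against 58.2 TPM in replicate 1, and was 2.54-fold higher (2.44 to 2.66), or 0.89 on log2(TPM + 1), which is under 2-fold.

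All 4 membrane regulators lay within 2-fold with the main scaling. Cd55, which takes convertases apart, had 5.32 TPM in replicate 2, against 5.52 TPM in replicate 1, and a log2 difference of 0.47. Cd46, a cofactor of factor I that mice are known to use mainly in testis, had 0.48 TPM in replicate 2, against 0.86 TPM in replicate 1, and a difference of -0.67, and with total-count scaling it passed the limit at -1.01. Cd59a, which blocks C9, had 12.8 TPM in replicate 2, against 17.3 TPM in replicate 1, and a difference of -0.04. Cr1l, known as Crry, the main convertase regulator on mouse cells, had 20.8 TPM in replicate 2, against 25.7 TPM in replicate 1, and a difference of 0.13. The signs of Cd55, Cd59a and Cr1l turned in at least 1 alternative scaling or table. The receptors were low in both libraries: C3ar1, the receptor of C3a, had 0.52 TPM in replicate 2, against 0.80 TPM in replicate 1, and C5ar1, the receptor of C5a, had 0.81 TPM in replicate 2, against 0.77 TPM in replicate 1. With TMM scaling the counting intervals of the fold both span 1, at 0.642 to 1.18 for C3ar1 and 0.861 to 1.91 for C5ar1. These intervals depend on the scaling. The log2 difference of C3ar1 was -0.19 with TMM, -0.53 under total-count scaling and -0.47 under spike-in scaling. Whether the receptors differ between the libraries is therefore not settled.

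**Figure D3:**
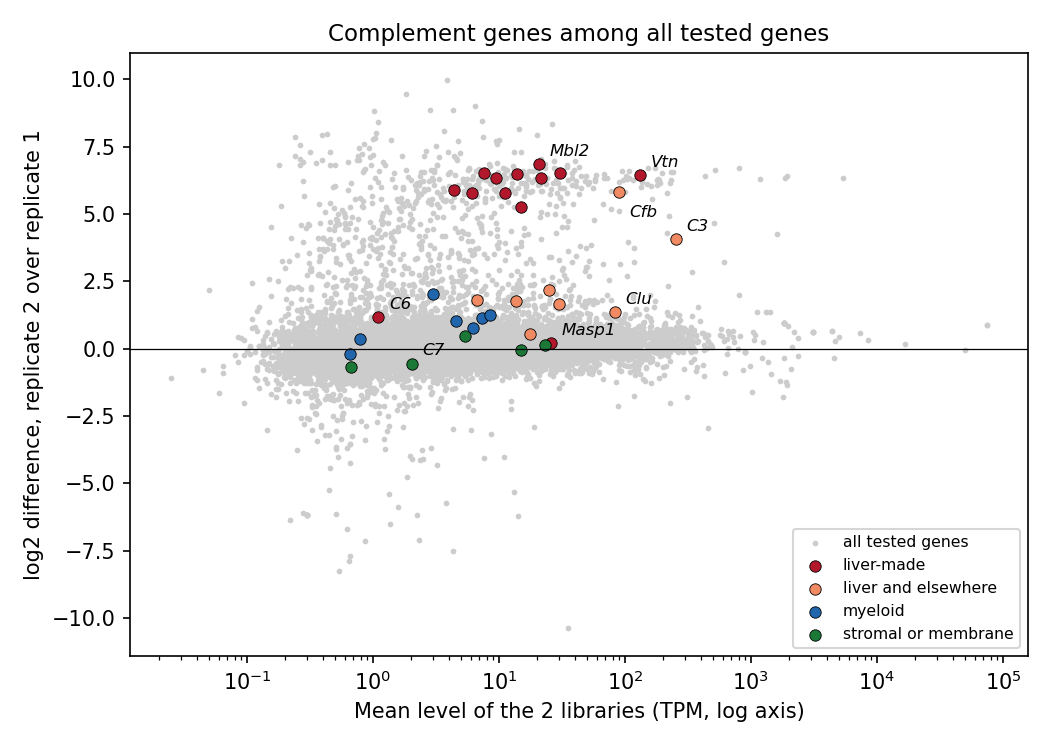
Log2 difference of replicate 2 over replicate 1 against mean TPM (log axis) for all 16155 genes tested, in grey, with the 33 complement genes coloured by source. The liver-made genes, apart from Masp1 and C6, lie in the upper band with Cfb, and the locally made genes lie lower, up to 2.04 for Fcna.

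Set against albumin, the main plasma protein of hepatocytes, most liver-made genes kept a like proportion in both libraries. Alb itself had 10582 TPM in replicate 2, against 189 TPM in replicate 1. Per 1000 TPM of Alb, Vtn had 24.5 TPM in replicate 2, against 21.03 TPM in replicate 1, Cfi had 5.70 TPM in replicate 2, against 4.87 TPM in replicate 1, and Hc had 3.98 TPM in replicate 2, against 4.87 TPM in replicate 1. The ratio lay within 2-fold between the libraries for 10 of the 13 liver-made genes, and for 10 of the 11 other hepatocyte markers. Hp, haptoglobin, which binds free haemoglobin, was the marker outside that limit, with 40.7 TPM per 1000 TPM of Alb in replicate 2 and 101 in replicate 1. The exceptions among the liver-made genes were C8g, C6 and Masp1, all lower against Alb in replicate 2. C8g had 2.71 TPM per 1000 TPM of Alb in replicate 2 and 6.25 in replicate 1, C6 had 0.129 in replicate 2 and 4.45 in replicate 1, and Masp1 had 2.12 in replicate 2 and 157 in replicate 1. In the second transcript table C8g was within 2-fold too, at 3.46 in replicate 2 and 5.24 in replicate 1, so that 11 of the 13 were. Of the 8 genes made in liver and elsewhere, only Cfb was within 2-fold, at 16.5 in replicate 2 and 25.8 in replicate 1. In the second transcript table Cfb lay at the edge of that limit, at 15.9 in replicate 2 and 31.6 in replicate 1, 1.99-fold apart. C3 had 43.8 TPM per 1000 TPM of Alb in replicate 2 and 222 in replicate 1, Serping1 had 3.98 in replicate 2 and 95.6 in replicate 1, and C2 had 1.65 in replicate 2 and 94.8 in replicate 1. Of these 8, the 7 other than Cfb were all lower against Alb in replicate 2, 5 of them by more than 20-fold.

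**Figure D4:**
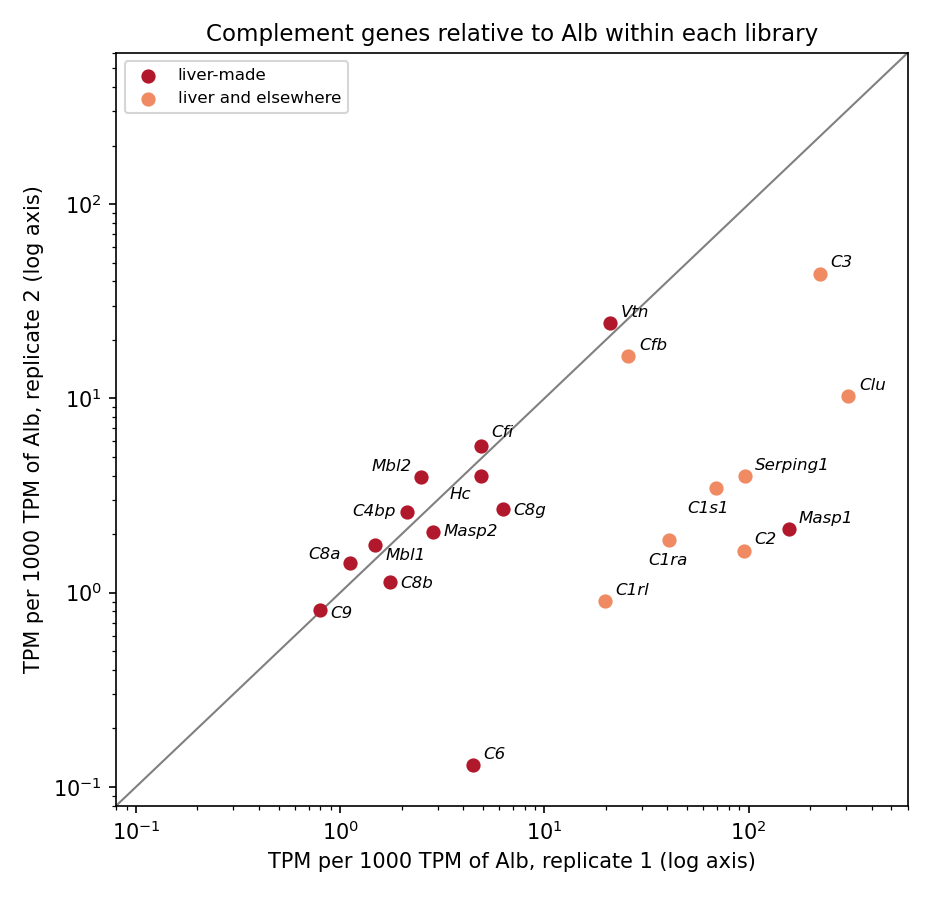
TPM per 1000 TPM of Alb in replicate 2 (vertical) against replicate 1 (horizontal), both on log axes, for liver-made genes and genes made in liver and elsewhere, with the line of equal ratio. Genes such as Vtn and Cfi lie near the line, while C2, Clu and Masp1 lie far below it.

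The myeloid genes were set against Csf1r, the receptor of macrophages for their growth factor, which had 6.35 TPM in replicate 2, against 4.49 TPM in replicate 1. The ratio of C1qa to Csf1r was 1.44 in replicate 2 and 1.23 in replicate 1, that of C1qb was 1.69 in replicate 2 and 1.36 in replicate 1, that of C1qc was 1.09 in replicate 2 and 1.22 in replicate 1, and that of Cfp was 0.869 in replicate 2 and 0.791 in replicate 1. These stayed close, with no common direction. Their size depended on the table. The mean log2 ratio to Csf1r was 0.41 for C1qa and 0.20 for C1qc, against 0.06 and -0.06 in the second transcript table. C5ar1 had a ratio of 0.128 in replicate 2 and 0.171 in replicate 1. The macrophage list as a whole had 3 of 9 tested genes over 2-fold higher and a summed level of 35.4 TPM in replicate 2, against 26.8 TPM in replicate 1, with a range of log2 differences from 0.05 to 1.77. Fcna differed more against Csf1r, at a ratio of 0.702 in replicate 2 and 0.345 in replicate 1. That size held only in the gene table. In the second transcript table Fcna had 6.91 TPM in replicate 2, against 3.50 TPM in replicate 1. Csf1r had 12.1 TPM there in replicate 2, against 8.10 TPM in replicate 1, so the ratios lay within 2-fold. In the gene table C3ar1 differed from Csf1r the other way, at a ratio of 0.0819 in replicate 2 and 0.178 in replicate 1. The list of Kupffer cells, the resident macrophages of liver, had 4 of 4 genes over 2-fold higher, with a summed level of 15.8 TPM in replicate 2, against 0.72 TPM in replicate 1 and none at 0. Neutrophil markers summed to 12.1 TPM in replicate 2, against 11.8 TPM in replicate 1, and 0 of 3 tested were over 2-fold apart. Fibroblast markers summed to 442 TPM in replicate 2, against 336 TPM in replicate 1, with 1 of 7 over 2-fold higher. The part of these cells in the values of the complement genes was not tested.

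Other genes of the complement system, from a list of 23 that the 33 do not include, were tested in 17 cases. Of these, 8 were over 2-fold higher in replicate 2 and 0 lower, beside 8.45% and 2.56% of all genes tested. Their median log2 difference over the 17 was 0.73. The 8 include C1rb and C1s2, whose reads may be shared in part with C1ra and C1s1. Cpn1, the catalytic chain of the carboxypeptidase that inactivates C3a and C5a, had 22.7 TPM in replicate 2, against 0.30 TPM in replicate 1, and was 98.8-fold higher. Colec10, a liver collectin, had 4.68 TPM in replicate 2, against 0.07 TPM in replicate 1, and was 85.0-fold higher. Cpn2 and Colec11 of the same list differed less, at 13.3-fold and 8.58-fold higher in replicate 2. Vsig4, a C3b receptor of tissue macrophages that is high in Kupffer cells, had 150 counts in replicate 2 and 1 in replicate 1, a ratio of 141 with a counting interval of 37.4 to 8402. Cfd, factor D, the adipocyte protease that cleaves factor B, was at 173 TPM in replicate 2, against 162 TPM in replicate 1, a fold of 1.43, beside adipocyte markers summing to 1454 TPM in replicate 2, against 1254 TPM in replicate 1. C4b had 66.3 TPM in replicate 2, against 37.9 TPM in replicate 1, and C4a had 21.8 TPM in replicate 2, against 37.0 TPM in replicate 1, but the pair are near-identical copies and the division of reads between them is uncertain. By scaled counts C4b was 6.47-fold higher (6.13 to 6.83), from 7414 counts in replicate 2 and 1614 in replicate 1, a larger difference than its TPM show, and the fold of C4a was 1.01.

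Promoter sequences of 250 bases before the start, from RefSeq on GRCm38.p6, were found for 26 of the 33 genes, 11 of them liver-made. The letters of 8 motifs were searched on both strands. A gene was counted if any of its listed promoters held the letters, while the shares of all promoters count each promoter singly. A gene with several promoters has more chances to match, so the counts and the shares are not like measures. GTTAAT, a part of the site of the liver factor HNF1, was found for 5 of 11 liver-made genes. It was found for 1 of 4 genes made in liver and elsewhere and 2 of 11 locally made. Of all 32851 promoters of that length, 6.43% held it. GAGGAA, the core of the site of the myeloid factor PU.1, was found for 0 of 11 liver-made genes. It was found for 0 of 4 genes made in liver and elsewhere and 4 of 11 locally made, beside 23.3% of all promoters. TTGCNNAA, the letters of the C/EBP site, was found for 1 liver-made gene, 3 made in liver and elsewhere and 0 locally made. It was in 9.56% of all promoters. The full HNF1 site, which contains the half-site, and the HNF4 letters CAAAGTCCA were in none of the 26, beside 0.00913% and 0.384% of all. TTCNNNGAA (STAT) was in 3 of the 26, the NF-kappaB site in 5 and TATAAA in 4, beside 7.02%, 17.6% and 12.4% of all. A match is a description of letters and not a site. Shown are 3 liver-made promoters with the HNF1 half-site and 1 of a C1q chain with the PU.1 core, chosen after the matches were seen, 5' to 3' on the strand of the gene with the match in capitals (ATTAAC and TTCCTC are the motifs read on the other strand). They are C8a (chr4:104876399-104876648, minus strand), Hc (chr2:35061413-35061662, minus strand), Vtn (chr11:78498870-78499119, plus strand) and C1qc (chr4:136892915-136893164, minus strand):
C8a: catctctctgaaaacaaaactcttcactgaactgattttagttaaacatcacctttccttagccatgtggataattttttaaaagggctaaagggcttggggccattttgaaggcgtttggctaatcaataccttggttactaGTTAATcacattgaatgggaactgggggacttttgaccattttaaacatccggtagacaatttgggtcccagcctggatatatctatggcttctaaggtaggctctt
Hc: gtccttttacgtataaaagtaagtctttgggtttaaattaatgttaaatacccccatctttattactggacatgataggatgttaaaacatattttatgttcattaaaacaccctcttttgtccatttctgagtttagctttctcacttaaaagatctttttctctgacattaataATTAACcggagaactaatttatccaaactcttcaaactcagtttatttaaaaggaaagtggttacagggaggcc
Vtn: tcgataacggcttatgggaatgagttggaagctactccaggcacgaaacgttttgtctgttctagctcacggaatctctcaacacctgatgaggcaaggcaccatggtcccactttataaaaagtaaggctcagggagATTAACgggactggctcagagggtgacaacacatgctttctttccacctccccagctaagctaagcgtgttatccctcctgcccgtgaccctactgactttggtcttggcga
C1qc: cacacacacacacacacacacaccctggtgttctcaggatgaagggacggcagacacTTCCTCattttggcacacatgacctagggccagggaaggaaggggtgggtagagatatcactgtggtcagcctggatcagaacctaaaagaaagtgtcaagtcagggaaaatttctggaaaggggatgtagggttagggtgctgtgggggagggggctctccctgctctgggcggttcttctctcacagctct
Counted from the RefSeq start, the capitals begin at -107 in C8a, -74 in Hc, -112 in Vtn and -193 in C1qc. GENCODE M21, the annotation of the counts, has Hc up to 35061438, Vtn from 78499091 and C1qc up to 136893065. The stretches of these 3 therefore reach into the annotated gene, that of C1qc over most of its length. Positions from the GENCODE start would differ for them.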

How the data were processed

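Total RNA-seq of 2 adrenal gland libraries was analysed. Per the labels, a directional kit and ERCC spike-ins were used, and the assembly was mm10. Per the deposited text files, the annotation was GENCODE M21. Expected counts and TPM fill the deposited gene table and one transcript table per the file headers, and a column of the deposited transcript table gives the percent of a gene's TPM that each transcript holds. A further transcript table was deposited by the authors with estimated counts and its own TPM. Tools, versions and any use of strand in counting were not given in the sources used here. TPM is relative to all entries of a table, so a few abundant genes can lower all others.

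Expected counts were rounded to whole numbers. Depth was scaled with TMM from edgeR 4.0.16 in R 4.3.3. The log2 difference divides replicate 2 by replicate 1 after 0.5 was added to each count. Genes averaging 20 counts or more, without mitochondrial ones, were called tested, and those over 2-fold apart were counted. With 1 group of 2 libraries there is no replicate check and no test between groups. Intervals are Clopper-Pearson at 95%. Intervals and floors cover counting error only; a count of 0 allows 3 counts, or 8.86e-06% of the counts of replicate 2 and 7.98e-06% of those of replicate 1. Alternatives were DESeq2 1.42.0 size factors, total-count and spike-in scaling, prior count, minimum count, the second table, TPM scales, TPM rescaled to protein-coding genes, a 4-fold threshold and leaving out each library. The scripts were tested on simulated counts. The genes named are all 33, the other complement genes of a list, and markers of other cell types. These genes, source classes and lists were chosen with earlier results of these data known.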

Additional observations from a re-analysis of the deposited data

How the results depend on the processing

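Of the 33 complement genes, 23 were over 2-fold higher in replicate 2, and this count was 15 at a 4-fold threshold, 19 under total-count and spike-in scaling and 18 on both TPM scales. C1qa, C1qb, C6 and Cfp were the genes that fell under 2-fold with those scalings, together with Clu on the TPM scales. The count of genes over 2-fold lower, 0, became 1 under total-count scaling (Cd46). The median gene moved by -0.34 under total-count scaling, -0.28 under spike-in scaling, -0.31 on log2(TPM + 1) and -0.41 on log2(TPM + 0.1). Over all 16155 genes tested, 1365 higher and 413 lower became 1058 and 1104 under total-count scaling and 1090 and 920 under spike-in scaling. They became 772 and 405 on log2(TPM + 1), 988 and 1202 on log2(TPM + 0.1), and 810 and 112 at 4-fold. With no minimum count 27310 genes were tested, of which 4175 (15.3%) were higher and 4137 (15.1%) lower. At a minimum of 50, 14144 were tested, of which 1099 (7.77%) were higher and 201 (1.42%) lower. The median of the liver-made genes, 6.34, was 3.88 on log2(TPM + 1), where the pseudocount lowers differences of low genes. Summed over the classes in replicate 2 and replicate 1, levels without the other library were 559 and 39.8 TPM for the liver-made genes, 872 and 166 TPM for those made in liver and elsewhere, and 78.9 and 75.9 TPM for the locally made genes. The mean sums, 299, 519 and 77.4 TPM, were 796, 1365 and 196 TPM when TPM was rescaled to protein-coding genes, and 468, 728 and 120.2 TPM in the second table. The count of locally made genes over 2-fold higher, 4 of 12, was 1 under total-count and spike-in scaling and on both TPM scales. Of all genes tested, 6.55% were higher under total-count scaling and 6.75% under spike-in scaling. The share was 4.78% on log2(TPM + 1) and 6.12% on log2(TPM + 0.1), so 1 of 12 is near the shares of all genes. No paired analysis was possible because there is 1 group, and its replicate numbers pair nothing. Depth limits the genes with few counts in replicate 1, such as C9 with 10 and Mbl1 with 12, whose intervals are the widest.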
